A study of Mus musculus with 66 samples.

Results

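The 40 mouse genes described here encode proteins that repair DNA or that hold the cell cycle while damage is present. They were chosen by name from a list of DNA repair and checkpoint genes, with earlier results of these data known. All 40 were found among the 39179 genes of the count tables. By role the list holds 12 genes of homologous recombination, 9 of the Fanconi anaemia pathway, 3 of mismatch repair, 3 of the complex that senses double-strand breaks, 5 of the checkpoint, 3 of base excision repair and poly(ADP-ribose) signalling, 3 of nucleotide excision repair, Polq of theta-mediated end joining and Mgmt of direct reversal. RNA came from BC57, a mouse bladder cancer line grown in DMEM with 10% fetal bovine serum, and from normal mouse urothelium taken from 9 mice. Each source was split: one portion was frozen (FF), and the other spent 24 hours in buffered formalin before wax embedding (FFPE). The study compared library kits that work from little RNA. Ovation SoLo (NuGEN), a random-primed kit with depletion of ribosomal sequence, was used at 50 pg, 250 pg and 2 ng. SMARTer Stranded Total RNA-Seq Kit - Pico, a template-switching kit, was used at 250 pg and 2 ng. Illumina TruSeq Stranded mRNA libraries, which select poly(A) RNA, were made from 1 µg of frozen RNA and served as the reference. There were 22 groups of 3 libraries each, 66 in all. BC57 is a single cultured line, and the labels do not say how urothelium of the 9 mice was combined, so p-values measure the spread between libraries, which may be technical. FFPE RNA and frozen RNA were extracted with different Qiagen kits, so fixation and extraction cannot be told apart.

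Cells repair double-strand breaks either by copying an intact sister chromatid, which is homologous recombination, or by joining the ends. BRCA1 with its partner BARD1 prepares and steers the break, BRCA2 with PALB2 acts in the strand exchange that follows, and helicases and nucleases such as BLM, BRIP1 and EXO1 process the DNA. The Fanconi anaemia proteins unhook crosslinks between strands and feed them into the same pathway. ATM and ATR are kinases that sense breaks and stalled replication forks, and CHEK2 and CHEK1 carry their signal to the cell cycle. Many of these genes are transcribed most in S and G2 phases, so their transcripts are more abundant in dividing cells than in resting ones, and adult urothelium is known to turn over slowly. MGMT removes alkyl groups from guanine and is known in human tumours for the silencing of its promoter.

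Depth and sample makeup bear on every value. Total counts per library ranged from 928722 to 4706030 in the 36 Ovation libraries, from 651879 to 7152648 in the 24 SMARTer libraries, and the 6 poly(A) libraries held 18499591 to 36187226. In the poly(A) libraries, summed levels of 9 urothelial markers were 427 to 440 CPM (counts scaled to library size) in BC57 and 10051 to 11107 in urothelium. Upk2, an uroplakin of the urothelial surface, was at 3.13 ± 0.107 CPM in BC57 and 968 ± 44.2 in urothelium (SD, n = 3), so a defining urothelial marker was low in the cancer line. Summed levels of 8 fibroblast markers were 17.8 to 20.4 CPM in BC57 and 9709 to 10540 in urothelium, 6 endothelial markers 0.847 to 1.17 and 278 to 290, 6 smooth muscle markers 10.1 to 12.2 and 206 to 224, and 7 immune markers 24.1 to 24.4 and 335 to 357. The urothelium samples therefore held RNA of other cell types, and the part of that RNA in the results was not tested. In such bulk samples, fewer cells of a type and less RNA per cell cannot be told apart. The third urothelium library of each SMARTer FFPE group stood apart from the other libraries of its group, and results that rest on it are given with and without it.

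Among the members, 5 carried, in the 250 bases before their RefSeq transcription start, a word of the kind bound by E2F factors, which drive S-phase transcription. Promoters of 33 of the 40 members were in the RefSeq table (GRCm38.p6). The words searched on both strands were TTTCCCGC, TTTCGCGC, TTTGCCGC and TTTGGCGC, and they were found in 5 of the 33 promoters (15.2%), against 2.16% of 27025 genes and 3.55% of the 12194 genes that were also tested in the poly(A) libraries. The 5 promoters are shown because genes with such a word went in both directions, from a rise of 4.94 in Bard1 to a small fall in Fancg (-0.32) on the log2 scale in the poly(A) libraries. Mgmt is shown because it was the member without a read in BC57 poly(A) libraries. Capitals mark the E2F-type words, or GC boxes (GGGCGG, either strand) in Mgmt; each sequence is on the strand of its gene.
Bard1, chr1:71102973-71103222, minus strand: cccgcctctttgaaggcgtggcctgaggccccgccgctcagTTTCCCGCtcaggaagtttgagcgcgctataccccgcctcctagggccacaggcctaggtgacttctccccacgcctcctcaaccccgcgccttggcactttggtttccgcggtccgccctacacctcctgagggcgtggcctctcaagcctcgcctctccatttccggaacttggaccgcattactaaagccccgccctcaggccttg
Brca2, chr5:150522371-150522620, plus strand: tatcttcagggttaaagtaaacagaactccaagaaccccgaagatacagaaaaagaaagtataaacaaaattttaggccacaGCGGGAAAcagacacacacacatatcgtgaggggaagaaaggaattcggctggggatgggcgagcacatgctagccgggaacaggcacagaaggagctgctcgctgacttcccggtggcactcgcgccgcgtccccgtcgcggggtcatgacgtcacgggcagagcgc
Chek2, chr5:110839733-110839982, plus strand: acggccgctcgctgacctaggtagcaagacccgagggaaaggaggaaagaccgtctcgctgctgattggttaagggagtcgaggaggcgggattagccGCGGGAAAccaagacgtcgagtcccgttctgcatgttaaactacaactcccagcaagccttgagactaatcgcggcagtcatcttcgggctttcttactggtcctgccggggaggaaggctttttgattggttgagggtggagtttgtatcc
Msh3, chr13:92355004-92355253, minus strand: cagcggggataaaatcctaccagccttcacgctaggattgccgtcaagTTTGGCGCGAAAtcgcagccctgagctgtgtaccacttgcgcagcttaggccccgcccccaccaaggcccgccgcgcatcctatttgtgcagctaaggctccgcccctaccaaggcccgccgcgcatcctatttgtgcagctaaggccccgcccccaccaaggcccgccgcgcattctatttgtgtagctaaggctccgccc
Fancg, chr4:43010302-43010551, minus strand: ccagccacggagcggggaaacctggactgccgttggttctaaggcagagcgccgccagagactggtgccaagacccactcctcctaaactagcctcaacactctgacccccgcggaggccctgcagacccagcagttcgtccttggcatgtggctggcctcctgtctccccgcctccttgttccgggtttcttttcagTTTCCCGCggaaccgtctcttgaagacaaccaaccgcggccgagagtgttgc
Mgmt, chr7:136894336-136894585, plus strand: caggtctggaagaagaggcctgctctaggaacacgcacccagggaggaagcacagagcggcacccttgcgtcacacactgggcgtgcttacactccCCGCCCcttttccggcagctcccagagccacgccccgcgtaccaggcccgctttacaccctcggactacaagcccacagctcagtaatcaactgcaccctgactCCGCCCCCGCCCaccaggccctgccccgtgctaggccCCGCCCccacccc
The word began 209 bases before the start in Bard1, 168 in Brca2, 152 in Chek2 and 52 in Fancg, and Msh3 had overlapping words at 202 and 198 bases. Mgmt had 4 GC boxes, from 154 to 13 bases before this start, and the other annotated start of the gene had none. Among other promoter words, CCAAT was in 19 of the 33 promoters (57.6%, against 39.9% of tested genes), GGGCGG in 22 (66.7%, against 60.2%), the ETS word CCGGAAG in 6 (18.2%, against 13.9%), and TTTGAA, which is the core of the cell cycle homology region, in 2 (6.06%, against 13.2%). These matches describe the letters of the windows and say nothing of binding. In the GENCODE vM21 annotation, the starts of Bard1 (71103146), Chek2 (110839979) and Fancg (43010506) fall inside the windows shown. By that annotation the Fancg word lies within the gene.

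In the poly(A) libraries, most of the 40 genes were higher in BC57 than in urothelium and 4 were lower. Exo1 and Rad51ap1 of homologous recombination, Clspn and Chek1 of the checkpoint and Ung of base excision had the steepest rises, and Mgmt the steepest fall. Levels are given as CPM scaled by the trimmed mean of M values (TMM), and a gene is called where edgeR's quasi-likelihood test gives a Benjamini-Hochberg adjusted p under 0.05 over all genes tested. All 40 members passed the filter on low counts, and 39 were called: 35 higher in BC57 and 4 lower. The background is high in this comparison: 91.3% of the 17934 genes tested were called, 42.8% higher and 48.5% lower, so the count of calls is close to that of all genes, while its direction is not. The median log2 difference of the members, BC57 minus urothelium, was 1.49, beside -0.12 over all genes tested. In all 40 the 3 BC57 libraries and the 3 urothelium libraries did not overlap, as in 91% of genes. The summed level of the 40 genes was 2039 ± 2.39 CPM in BC57 and 681 ± 6.90 in urothelium. Summed levels of 22 proliferation genes, given beside this result, were 5245 to 5287 CPM in BC57 and 287 to 292 in urothelium. Mki67 and Top2a, markers of dividing cells, were at 403 ± 8.10 and 705 ± 20.4 CPM in BC57 and at 12 ± 0.780 and 11.7 ± 0.437 in urothelium, and all 22 genes of that list were called higher, with a median of 4.27. The part of proliferation in the members' difference was not tested.

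**Figure D1:**
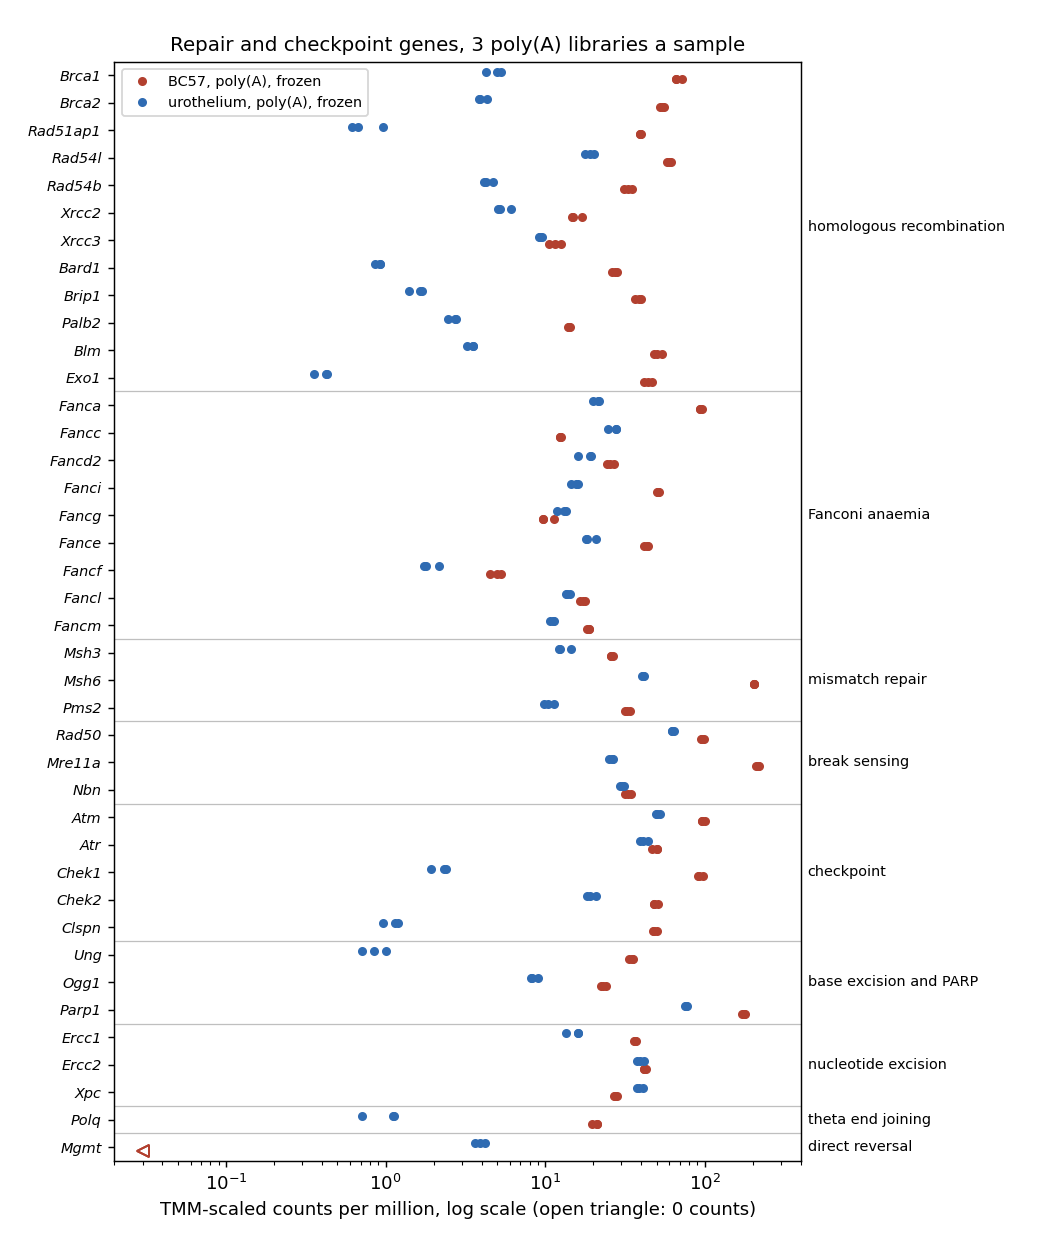
Level of each of the 40 genes in each poly(A) library (x axis, TMM-scaled CPM on a log scale; red, 3 BC57 libraries; blue, 3 urothelium libraries; open triangle, 0 counts in all 3 BC57 libraries, drawn at the left edge). The red points lie right of the blue ones for 36 genes and left of them for Fancc, Fancg, Xpc and Mgmt, and the widest gaps are in homologous recombination, Chek1, Clspn, Ung and Polq.

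All 12 genes of homologous recombination were called higher in BC57, with a median log2 difference of 3.78 and a range from 0.31 to 6.74. Exo1, a nuclease that resects DNA ends and also acts in mismatch repair, was at 46.6, 41.4 and 44.2 CPM in the BC57 libraries and at 0.357, 0.423 and 0.428 in urothelium. That is a log2 difference of 6.74 (SE 0.12, adjusted p = 5.38e-22), the steepest rise among the 40. Rad51ap1, which acts in strand pairing, followed with 39.2, 39.5 and 39.7 against 0.970, 0.616 and 0.673 CPM (5.75). Bard1 was at 27.4 ± 0.983 CPM against 0.900 ± 0.0374 (4.94), and the helicase gene Brip1 was higher by 4.61. Brca1 was at 66.3, 72.1 and 66.0 CPM in BC57 and at 5.31, 4.96 and 4.28 in urothelium, a log2 difference of 3.83 (SE 0.07). Brca2 was close to it, with 53.8, 55.5 and 52.8 CPM against 3.83, 4.35 and 3.92 (3.74). The helicase Blm (3.87) lay in the same range, above the translocase genes Rad54b (2.91) and Rad54l (1.63), the linker Palb2 (2.42) and Xrcc2 (1.52). In Rad54b, 35.77% of exon bases are shared with Fsbp on the same strand, so its counts are uncertain. In Rad54l, 15.36% of exon bases lie opposite exons of Lrrc41, and whether counting used strand is not stated. Xrcc3 differed least in this class: 10.5, 11.6 and 12.5 CPM in BC57 against 9.14, 9.50 and 9.24 in urothelium (0.31, SE 0.08, adjusted p = 0.00165). Its groups did not overlap, but the gap between them was about the size of the spread of the BC57 libraries.

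The Fanconi anaemia genes were split, with 7 of 9 called higher in BC57 and 2 called lower, and a median of 0.75. Fanca, a subunit of the core complex, rose most: 96.8, 93.9 and 93.2 CPM in BC57 against 19.9, 21.4 and 21.8 in urothelium (2.16, SE 0.05, adjusted p = 6.78e-20). Fanci, which with FANCD2 forms the clamp that the core complex ubiquitinates, was higher by 1.72, whereas its partner Fancd2 was higher by 0.51. Among the remaining core genes Fancf was higher by 1.38, Fance by 1.18, the translocase Fancm by 0.75 and the ubiquitin ligase Fancl by 0.32. Fancc, also a core subunit, went the other way, with 12.4, 12.4 and 12.5 CPM in BC57 and 24.9, 27.7 and 28 in urothelium (-1.12, SE 0.06, adjusted p = 6.25e-13). Fancg, a further core subunit, was lower by a smaller margin, at 10.3 ± 0.975 against 12.9 ± 0.929 CPM (-0.32, adjusted p = 0.00123). Thus subunits of one complex differed from each other in direction as well as in size. Exon bases on the opposite strand are shared with other genes in Fancc (18.64%), Fanci (15.95%), Fancf (14.96%), Fancl (13.7%) and Fanca (10.5%), and no source used here states whether counting used strand.

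The 3 mismatch repair genes were all called higher. Msh6, whose product recognises single mispairs, was the most abundant member per kilobase of exon in BC57, with 205, 203 and 203 CPM in BC57 and 41.5, 41 and 40.3 in urothelium (2.32, SE 0.04, adjusted p = 7.25e-22). Pms2, the endonuclease subunit, was higher by 1.63. Msh3, which recognises larger loops, was at 25.7, 25.8 and 26.4 CPM against 14.6, 12.3 and 12.2 (1.01, SE 0.07, adjusted p = 8.4e-12).

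Members of the break-sensing complex, whose proteins work as one unit, differed widely. The nuclease gene Mre11a was at 216, 210 and 217 CPM in BC57 and at 25, 26.4 and 26.7 in urothelium (3.04, SE 0.04, adjusted p = 3.86e-23). Rad50, the ATPase of the complex, was higher by 0.62. Nbn, which recruits ATM, was at 33.1, 34.6 and 31.6 CPM against 31.2, 29.6 and 30.5, a difference of 0.12 (SE 0.05, adjusted p = 0.0449) that turned to -0.01 (adjusted p = 0.873) with upper-quartile scaling, a scaling that moved the median of all genes by -0.12. Per kilobase of exon, urothelium had 12 CPM of Nbn and 11.7 of Rad50, so these were its most abundant members after Parp1 (14.4), whereas in BC57 Mre11a (36.2) was second to Msh6 (46.9).

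All 5 checkpoint genes were called higher, Clspn and Chek1 by more than Chek2, Atm and Atr. Clspn, the adaptor through which ATR activates CHEK1, was at 47.9, 47.2 and 50.3 CPM in BC57 and at 0.970, 1.15 and 1.19 in urothelium (5.43, SE 0.09, adjusted p = 3.01e-22). Chek1, the effector kinase of ATR, was next, with 90.2, 97.1 and 91.7 CPM against 2.40, 2.31 and 1.93 (5.41, SE 0.08). Chek2, the effector of ATM, was higher by 1.35 and Atm itself by 0.94. Atr was at 46.5, 50.1 and 50.0 CPM against 44.4, 39.4 and 41.2 (0.23, SE 0.05, adjusted p = 0.000343), and this call was lost with upper-quartile scaling (0.11, adjusted p = 0.0613).

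Ung, the uracil glycosylase that starts base excision, was at 35.7, 33.6 and 35.2 CPM in BC57 and at 0.715, 0.846 and 1.01 in urothelium (5.30, SE 0.10, adjusted p = 3.73e-21). Ogg1, the glycosylase for oxidised guanine, was higher by 1.46, and 10.61% of its exon bases lie opposite exons of Camk1. Parp1, which marks single-strand breaks with ADP-ribose chains, was at 180, 172 and 176 CPM against 77.0, 75 and 76.2 (1.21, SE 0.04, adjusted p = 2.47e-17), and it was the most abundant member per kilobase in urothelium. Among the roles of 3 or more genes, nucleotide excision repair, which removes bulky lesions, had the smallest median, 0.09. Ercc1, a subunit of the nuclease that cuts on the 5' side of a lesion, was higher, at 36.9, 36.7 and 35.8 CPM against 13.5, 16.1 and 16 (1.25, SE 0.06, adjusted p = 5.38e-14). Xpc, the damage sensor, was lower, at 26.8, 27.5 and 28 CPM against 37.7, 38.9 and 41.2 (-0.52, SE 0.05, adjusted p = 6.2e-09). Ercc2, a helicase of the transcription factor TFIIH, did not pass the test, with 43.2, 41.6 and 41.8 CPM against 37.8, 39.5 and 41.5 (0.09, adjusted p = 0.0969; -0.04 with upper-quartile scaling). Of its exon bases 42.42% lie opposite exons of other genes.

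Polq, the polymerase of theta-mediated end joining, was at 21.3, 19.6 and 21.2 CPM in BC57 and at 0.715, 1.12 and 1.13 in urothelium (4.34, SE 0.12, adjusted p = 1.2e-18). Mgmt had 0 counts in all 3 BC57 poly(A) libraries, which allows up to 0.0347 CPM over the group by 3 counts, and 3.63, 3.89 and 4.22 CPM in urothelium. It was at least 114-fold lower in BC57 by that floor (adjusted p = 2.06e-13). Across all conditions Mgmt had 0 counts in 32 of the 33 BC57 libraries, and 3 counts in the third SMARTer FFPE library at 2 ng. Urothelium had 511 counts of it in all, and 8 of its 33 libraries had none. In each of the 10 low-input conditions Mgmt failed the filter on low counts and was not tested.

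Per kilobase of exon, the level of the highest member was 31.5-fold above the lowest with a count in BC57, where Mgmt had none and is left out of that ratio. In urothelium the ratio was 300.3-fold over all 40, and Exo1 was lowest at 0.0478 CPM per kilobase. The median member was at 5.76 CPM per kilobase in BC57 and 2.03 in urothelium.

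Other repair and checkpoint genes outside the 40 gave the setting for these values. Of 101 such genes, 96 were called in the poly(A) libraries, 75 higher in BC57 and 21 lower, with a median of 0.95. Over all genes tested 91.3% were called, 42.8% higher and 48.5% lower, so the count of calls is close to that share. The highest were Cdc25c (6.36), the phosphatase that starts mitosis, the glycosylase Neil3 (4.11) and the ubiquitin ligase Rad18 (4.03). Cdc25c was at 33 ± 1.09 CPM in BC57 and 0.374 ± 0.135 in urothelium. The lowest were the nuclease Fan1 (-1.91), the glycosylase Neil1 (-1.77) and the nuclease Ercc5 (-1.70), and Fan1 was at 3.61 ± 0.339 against 13.7 ± 1.08 CPM. Fan1 acts on crosslinks with the Fanconi proteins, and Ercc5 cuts beside lesions in nucleotide excision, the pathway of Xpc.

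The next comparisons ask whether low-input and fixed libraries show the same difference. At 2 ng, frozen RNA gave nearly the poly(A) result in both kits. In Ovation, 31 of the 38 members tested were called, 30 higher and 1 lower, where 79.1% of 13018 genes were called (37.6% higher, 41.4% lower). SMARTer gave 34 of 39, 32 higher and 2 lower, against 77.5% of genes (36.3% higher, 41.2% lower). Member log2 differences correlated with the poly(A) ones at Pearson r = 0.981 (n = 38) in Ovation and r = 0.984 (n = 39) in SMARTer. These are correlations across genes, which share the RNA sources, and they are given as a description.

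Msh6 was at 175, 183 and 183 CPM in BC57 and at 52.2, 40.1 and 43.7 in urothelium in Ovation FF libraries at 2 ng (1.99), and at 215, 224 and 231 against 47.8, 48.5 and 56 in SMARTer ones (2.14). Clspn was at 33.2, 26.1 and 43.1 CPM against 0, 3.17 and 0.901 in Ovation (4.60), and at 62.7, 69.7 and 71.3 against 2.20, 1.15 and 1.51 in SMARTer (5.37). In both kits every BC57 library was far above every urothelium library for these genes. Fancc was again lower in BC57, at 9.80, 15.6 and 11.4 against 27.8, 24.3 and 25.7 CPM in Ovation (-1.08, adjusted p = 3.23e-05) and at 7.26, 4.82 and 6.12 against 13, 14.5 and 20.9 in SMARTer (-1.42, adjusted p = 2.8e-05). Xpc was lower in SMARTer, at 30.6, 33.9 and 33.4 against 57.7, 53 and 42.2 CPM (-0.65, adjusted p = 0.000111), while in Ovation its groups overlapped (-0.38, adjusted p = 0.102). Xrcc3 and Atr passed in SMARTer (0.81 and 0.33, adjusted p = 0.0188 and 0.0383), as did Ercc2 (0.33), the one member called in a low-input condition and not in poly(A).

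At 250 and 50 pg fewer members were called than at 2 ng, as were fewer genes of any kind. Frozen Ovation libraries gave 21 of 39 at 250 pg, all higher (48% of all genes called; 21.6% higher, 26.4% lower), and 23 of 39 at 50 pg, 22 higher and 1 lower (45.2%; 20.2% higher, 25% lower). Frozen SMARTer libraries at 250 pg gave 23 of 39, 22 higher and 1 lower (51.4%; 23.9% higher, 27.5% lower). Fixed Ovation libraries gave 33 of 39 at 2 ng, 31 higher and 2 lower (77%; 36.7% higher, 40.3% lower), 25 of 39 at 250 pg, 23 higher and 2 lower (52.2%; 24% higher, 28.2% lower), and 16 of 39 at 50 pg, 15 higher and 1 lower (33.5%; 14.7% higher, 18.8% lower). The medians of the members stayed between 1.36 and 1.64 in these conditions and in the 2 ng frozen ones, and the medians of all genes between -0.12 and -0.03. The Pearson correlation with the poly(A) differences was between 0.854 and 0.972 (n = 39 in each). In the Ovation FF libraries at 250 pg, the third urothelium library had 5.81 CPM of Mki67 and 2.39 of Top2a, beside 31.5 and 30.9 and 15.3 and 23 in the others, and the members called there ranged from 16 to 27 when single libraries were left out.

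**Figure D2:**
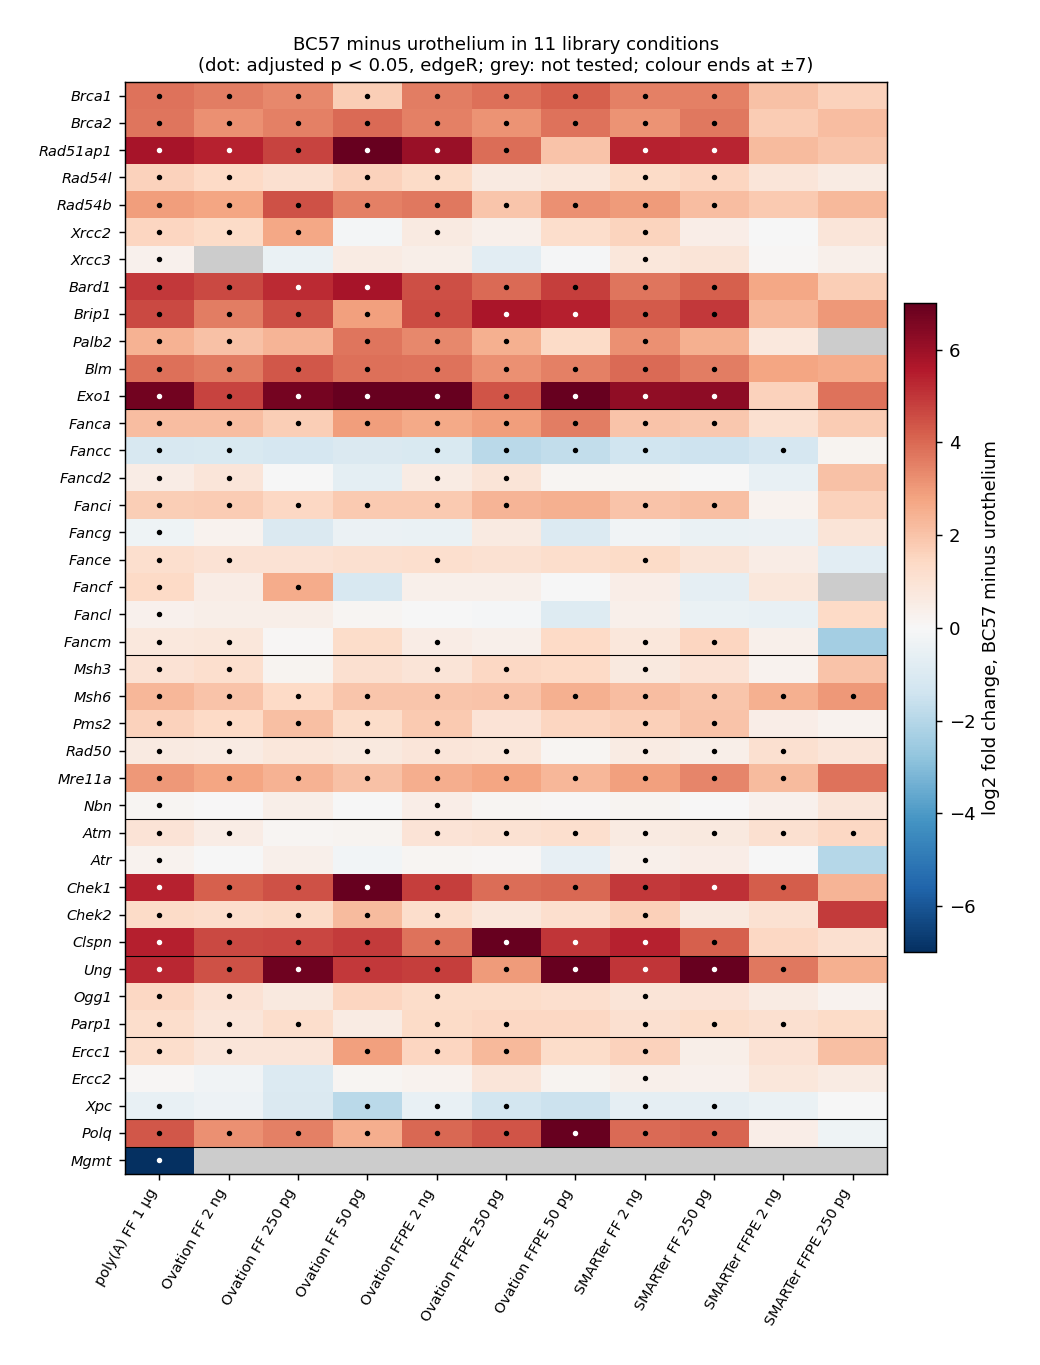
Log2 difference between BC57 and urothelium (colour; red, higher in BC57; blue, lower) of each of the 40 genes (rows, by role) in the 11 library conditions (columns). Dots mark calls and grey marks genes not tested; fitted values of genes without counts in 1 sample, such as Mgmt in poly(A), depend on the prior count. Msh6 is called in every column, the row of Fancc is blue in most columns, and the SMARTer FFPE columns hold 8 and 2 calls.

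With all libraries, no member was called in the direction opposite to poly(A) in any of the 10 low-input conditions. Without both libraries numbered 3 in the SMARTer FFPE conditions, 2 members were. These were Fancl at 2 ng (-0.98, adjusted p = 0.0363) and Atr at 250 pg (-1.81, adjusted p = 0.048), by edgeR's test. With all libraries, 15 of the 40 were called higher in 8 or more of the 10, and 20 in 1 to 7. Another 2 were called lower in at least 1, while Fancg, Fancl and Mgmt were called in none. Counts over conditions were not made for all genes, whose share of calls is given with each condition. Msh6 was called in all 10, with log2 differences from 1.41 (Ovation FF, 250 pg) to 3.03 (SMARTer FFPE, 250 pg). Mre11a, Chek1 and Ung were called in 9, and Mre11a ranged there from 2.05 to 3.44. Brca1, Brca2, Rad54b, Bard1, Brip1, Blm, Exo1, Fanca, Atm, Clspn and Polq were called in 8. For 10 of these 11 the remaining conditions were the SMARTer FFPE ones, and for Atm they were frozen Ovation RNA at 50 and 250 pg. At the other end, Xrcc3, Nbn, Atr, Ercc2 and Fancf were called in 1 condition each. Fancc was called lower in 6 conditions, from -1.88 (Ovation FFPE, 250 pg) to -1.06 (Ovation FFPE, 2 ng), and Xpc in 5, from -1.91 (Ovation FF, 50 pg) to -0.53 (Ovation FFPE, 2 ng).

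At 50 or 250 pg some members had no reads in any of the 3 urothelium libraries of a group. At 50 pg of frozen RNA, Ovation libraries held 47.2, 61.8 and 42.9 CPM of Exo1 in BC57 and 0 counts in all 3 urothelium libraries, which is at least 157-fold higher against 3 counts over the group (adjusted p = 2.34e-06). In Ovation libraries of fixed RNA at 50 pg, Ung was at 15.6, 23 and 4.00 CPM against 0 in all 3, at least 49.5-fold higher. In Ovation libraries of fixed RNA at 250 pg, Clspn was at 28.1, 33.8 and 24.3 CPM against 0, at least 94.4-fold higher. With 1 to 3 counts in urothelium the ratio has a wide counting interval: for Polq in Ovation libraries of fixed RNA at 50 pg it was 160 (95% exact interval 44.1 to 1328), and for Exo1 275 (49 to 10882). Floors and intervals here cover the error of counting alone. Fixed RNA at 50 pg also gave Fancc at 6.12, 15.3 and 26.8 CPM in BC57 and 75.4, 34.3 and 49.7 in urothelium (-1.72, adjusted p = 0.0463), and frozen RNA at that input gave Xpc at 4.10, 13 and 7.04 against 18.9, 22 and 56.4 (-1.91, adjusted p = 0.0204). The Fancc call was lost on leaving out BC57 library 1, BC57 library 2, or either of urothelium libraries 1 and 3 (adjusted p up to 0.167). The Xpc call was lost on leaving out library 3 of either source, or BC57 library 1 (adjusted p up to 0.179).

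To compare detection at one depth, libraries were thinned to 651879 counts, the total of the shallowest. Members with 5 or more counts in all 3 libraries numbered from 27 (Ovation FFPE, 50 pg) to 36 in BC57 groups and from 10 (SMARTer FFPE, 250 pg) to 22 (poly(A)) in urothelium groups. Without thinning the poly(A) libraries held 39 members in BC57 and 40 in urothelium at that count, and the other groups between 14 and 39.

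SMARTer libraries of fixed RNA gave the fewest calls, and the third urothelium library was unlike the other 2. That library was also shallower: it held 780106 counts in total at 2 ng, beside 3599113 and 3390528 in the others. At 250 pg it held 651879, beside 3239885 and 2048386. The part of depth in its values was not tested. At 2 ng, 8 of 39 members were called, 7 higher and 1 lower (30% of 14974 genes; 13.7% higher, 16.3% lower), and at 250 pg 2 of 37, both higher (9.38%; 3.8% higher, 5.58% lower). Without both libraries numbered 3, an alternative chosen after the data were seen, 28 of 39 were called at 2 ng (26 higher, 2 lower, 62.7% of genes) and 16 of 38 at 250 pg (15 higher, 1 lower, 21.4%). Those lower were Fancc and Fancl at 2 ng and Atr at 250 pg, and Fancl and Atr were higher in poly(A). Without the third urothelium library alone the counts were 26 and 16. Leaving out BC57 library 2 at 2 ng gave 1 call, and leaving out the first library of either source or the second of urothelium gave 2. At 250 pg it was 0 or 1 without any other single library. The summed level of the members was 619, 624 and 1403 CPM in the urothelium libraries at 2 ng and 542, 584 and 1332 at 250 pg, while BC57 held 1890, 1963 and 1759 at 2 ng. In the other 9 conditions the 27 urothelium libraries lay between 534 and 784.

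Exo1 was at 30.3, 36.9 and 35.8 CPM in BC57 at 2 ng and at 0.853, 0 and 40.2 in urothelium, with 3, 0 and 35 counts in the latter. Its log2 difference was 1.61 (adjusted p = 0.429) with all libraries and 6.19 (adjusted p = 9.8e-08) without those numbered 3. Clspn was at 61.6, 50.4 and 38 CPM against 1.71, 5.23 and 58.6, a difference of 1.44 (adjusted p = 0.336) that became 4.01 (adjusted p = 5.21e-08). Polq was at 26.4, 25.7 and 37.5 against 6.54, 4.07 and 60.9 CPM (0.47, adjusted p = 0.731; 2.29, adjusted p = 7.63e-05, without those libraries). Brca2 was at 99.8, 125 and 107 against 12.8, 3.20 and 89.7 CPM (1.80 and 3.81). The third urothelium library was within the BC57 range for Clspn, above it for Exo1 and Polq, and below it but far above the other urothelium libraries for Brca2. Other members did not follow: Chek1 was at 50.1, 58.4 and 61.3 CPM against 3.13, 0.581 and 8.05 (4.22, adjusted p = 0.00456), so urothelium library 3 stayed well below BC57. Proliferation genes summed to 202, 218 and 592 CPM in the urothelium libraries and to 4248, 4421 and 3454 in BC57, urothelial markers to 3971, 3923 and 893 in urothelium, and fibroblast markers to 11428, 10992 and 2810. In the third BC57 library, endothelial markers summed to 40.6 CPM beside 2.43 and 1.15. The cause of these values was not tested.

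**Figure D3:**
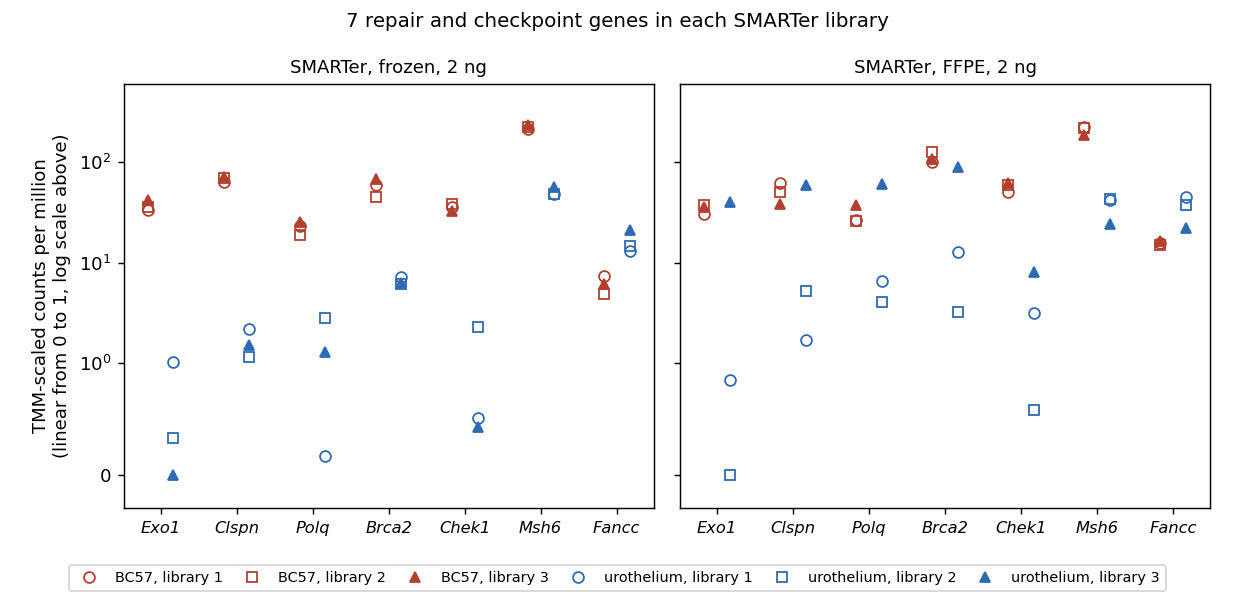
Level of 7 genes (y axis, TMM-scaled CPM, linear from 0 to 1 and logarithmic above) in each SMARTer library at 2 ng, frozen on the left and FFPE on the right. In the FFPE panel the filled blue triangle, urothelium library 3, lies within the BC57 range for Clspn (58.6 CPM), above it for Exo1 (40.2) and Polq (60.9) and just below it for Brca2 (89.7), and it lies well below the BC57 points for Chek1 and Msh6.

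With all libraries, the calls at 2 ng were Chek1 (4.22), Ung (3.70), Msh6 (2.49), Mre11a (2.24), Rad50 (1.14), Atm (1.13), Parp1 (1.11) and Fancc (-1.17), and at 250 pg Msh6 (3.03, adjusted p = 0.00644) and Atm (1.43, adjusted p = 0.0498). With the library number as a block at 2 ng, where the numbers paired the libraries, Fancc no longer passed (-1.12, adjusted p = 0.0644), and Brca1 (2.50, adjusted p = 0.0405), Brip1 (2.70, adjusted p = 0.047) and Blm (3.33, adjusted p = 0.0251) did.

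Fixation was compared at 2 ng within each source and kit, as FFPE minus frozen. In BC57, Xrcc3, Fancc, Bard1, Fanca, Atm and Brca2 were called higher with both kits, and Mre11a and Parp1 lower. Ovation called 16 of 39 members, 9 higher and 7 lower, where 32.3% of genes were called (16.6% higher, 15.6% lower). Xrcc3 was at 14.4, 12.3 and 12.5 CPM in fixed RNA and at 2.89, 3.98 and 4.25 in frozen RNA (1.81, SE 0.32, adjusted p = 2.56e-05). Palb2 was at 19.99, 19.3 and 18.7 against 12, 11.1 and 10.6 (0.78, adjusted p = 0.00525), and Fancc at 14.99, 21.2 and 23.6 against 9.48, 15.04 and 11.1 (0.75, adjusted p = 0.0125). Fixed and frozen libraries did not overlap for either Xrcc3 or Palb2 (nor for 43% of genes), and for Fancc they did. Bard1, Ercc1, Polq, Fanca, Atm and Brca2 were higher by 0.28 to 0.64, and Mre11a, Msh6, Exo1, Nbn, Rad50, Parp1 and Msh3 were lower, from -0.59 in Msh3 to -0.34 in Mre11a. DESeq2 called 7 members here, and edgeR called 9 without the first frozen library.

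SMARTer called 11 of 39 members in BC57, 8 higher and 3 lower, against 17.8% of genes (9.25% higher, 8.57% lower). Fancc was at 14, 13.2 and 15.4 CPM in fixed and 7.22, 4.81 and 6.10 in frozen RNA (1.24, adjusted p = 0.00802). Xrcc3 was at 21.5, 15.8 and 15.4 against 7.22, 8.06 and 8.85 (1.13, adjusted p = 0.00584), and Brca2 at 88.6, 111 and 101 against 59.1, 44.8 and 67.6 (0.82, adjusted p = 0.00171). Each fixed library was above each frozen one for the 3 genes (35.6% of genes had no overlap). Bard1, Atm, Rad54b, Chek1 and Fanca were higher by 0.33 to 0.70, and Mre11a (-0.50), Clspn (-0.58) and Parp1 (-0.68) were lower. With the library number as a block, Xpc also passed (-0.46, adjusted p = 0.0389). The count was 6 without the second frozen library, 7 without the third and 3 by limma on the deposited log2 values.

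In urothelium 30 members were tested in Ovation and 5 were called, 2 higher and 3 lower (37.3% of genes; 19.3% higher, 17.9% lower). All 5 were also called in BC57 with that kit, in the same direction. Over all genes tested in both sources, 2199 of the 2250 called in both had the same direction. Xrcc3 was at 11.2, 8.22 and 10.8 CPM in fixed RNA against 2.71, 4.12 and 5.69 (1.24, adjusted p = 0.0061), and Fancc at 45.8, 37.2 and 44.1 against 27.1, 23.7 and 24.9 (0.75, adjusted p = 0.000325). Parp1 was at 18.3, 25.8 and 25.5 against 45.6, 56.6 and 38.5 (-1.01, adjusted p = 4.92e-06), Nbn at 19, 16.8 and 18.3 against 31.5, 32.9 and 35.5 (-0.88), and Rad50 at 44.5, 47 and 58.2 against 75.4, 80.2 and 95.9 (-0.75). In all 5 genes fixed and frozen libraries did not overlap, as in 46.3% of genes. In SMARTer none of the 32 members tested passed edgeR's test (1.87% of genes called, 1.32% higher and 0.551% lower). Beside that, 12 were at an unadjusted p under 0.05, 7 were called by DESeq2, and 9 by edgeR without the third fixed library. Shares of all genes are not given for these 3 settings, so these counts cannot be set against a background or read as a result about the members. Xrcc3, which did not pass with all libraries, was at 15.5, 14.4 and 25.9 CPM in fixed and 3.58, 6.11 and 5.82 in frozen SMARTer urothelium (1.80, adjusted p = 0.0693). Whether fixation acted differently on BC57 and urothelium was tested in Ovation as an interaction. None of 39 members passed edgeR's test, where 5.9% of 14527 genes did (4.26% higher, 1.64% lower). At an unadjusted p under 0.05 there were 5 members. The share of genes at that threshold is not given, so this count cannot be set against a background. A limma fit on the deposited log2 values, and edgeR without the first fixed urothelium library, called 1 member each.

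**Figure D4:**
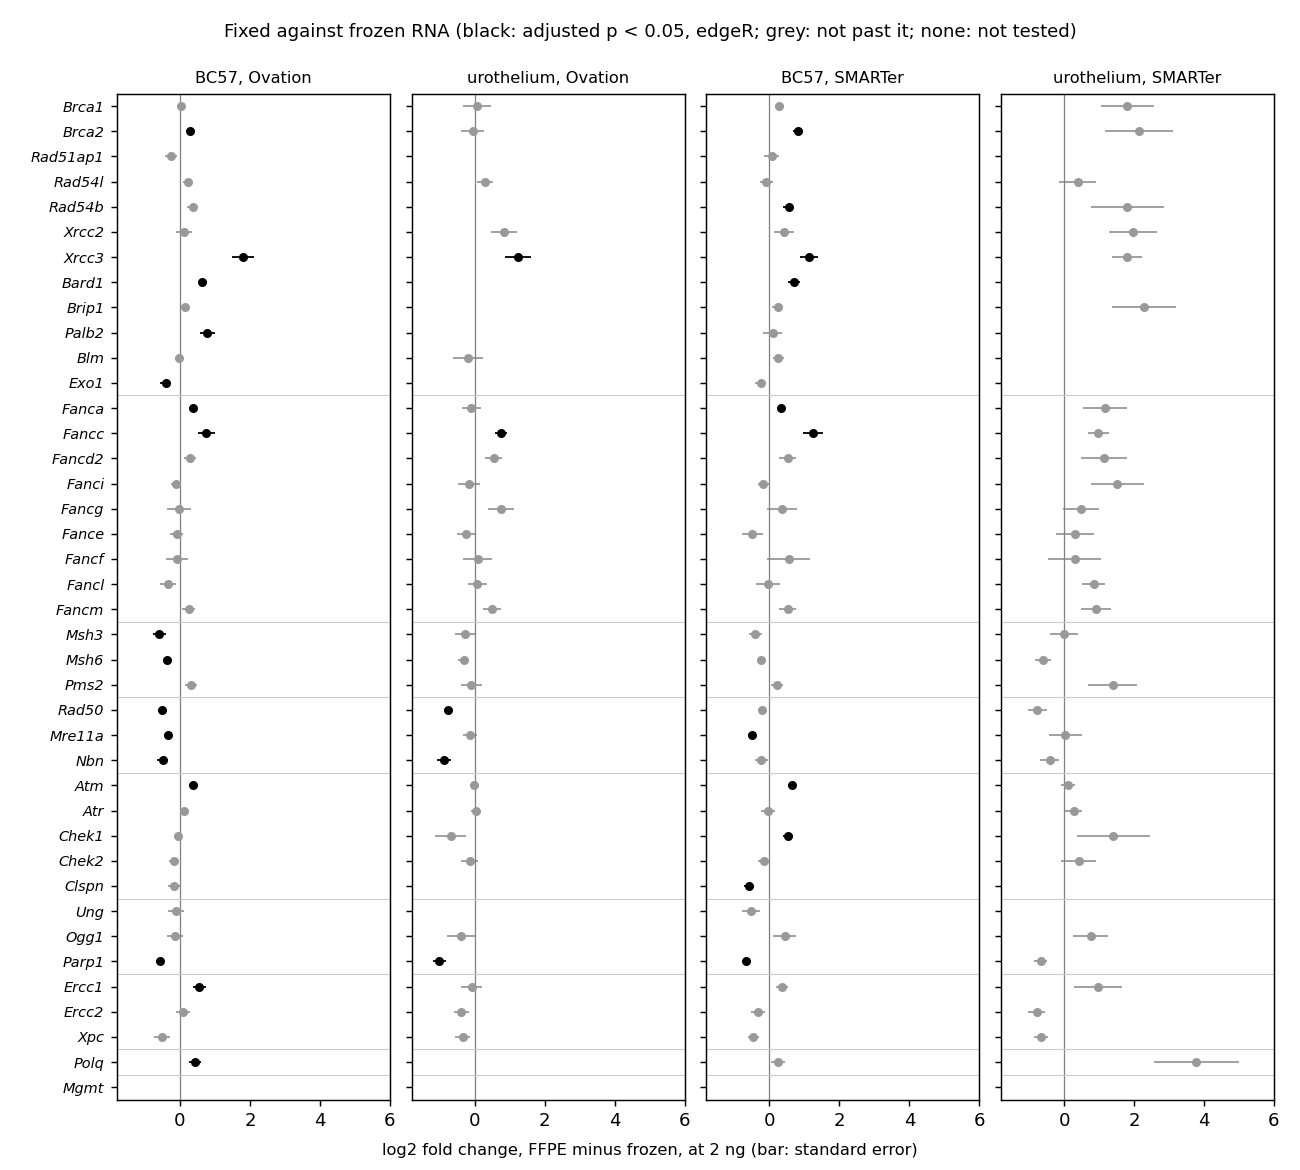
Log2 difference between fixed and frozen RNA at 2 ng (x axis, with standard errors) of each gene in the 4 comparisons; black points passed the test, grey ones did not, and genes without a point were not tested. Xrcc3 lies right of 0 in all 4 panels (1.81, 1.24, 1.13 and 1.80) and is black in 3, and the wide bars in the last panel belong to the comparison with the third SMARTer FFPE urothelium library.

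Kits were compared with poly(A) libraries of the same frozen RNA, at 2 ng and 1 µg. In Ovation, 24 of 39 members were called in BC57, 16 higher and 8 lower (59.9% of genes; 30.3% higher, 29.6% lower), and 17 of 37 in urothelium, 11 higher and 6 lower (56.7%; 28.1% higher, 28.6% lower). Of 36 members tested in both, 14 were called in both and all 14 in the same direction: Atm, Atr, Bard1, Brca2, Brip1, Chek1, Fancf, Nbn, Polq and Rad50 higher in Ovation, and Ercc2, Fanca, Parp1 and Xrcc3 lower. Over all genes tested in both, 6122 of the 6179 called in both had the same direction. Xrcc3 was at 3.22, 4.43 and 4.74 CPM in Ovation and 9.43, 10.4 and 11.2 in poly(A) libraries of BC57 (-1.33, SE 0.26). Bard1 was at 48.7, 54.7 and 60.2 against 24.7, 23.6 and 25.4 (1.14), and Brca2 at 93.3, 96.1 and 105 against 48.2, 49.7 and 47.3 (1.02). These groups did not overlap. In urothelium the called members of largest difference were Brip1, at 4.09, 4.44 and 4.72 CPM against 1.60, 1.66 and 1.36 (1.54), Fancf, at 5.26, 7.77 and 3.30 against 1.75, 2.11 and 1.69 (1.53), and Chek1 (1.46), whose libraries are given with the interaction. The frozen Ovation libraries of this comparison are also those the fixed libraries were compared with.

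SMARTer against poly(A) called 28 of 39 members in BC57, 19 higher and 9 lower (57.5%; 29.5% higher, 27.9% lower), and 20 of 37 in urothelium, 12 higher and 8 lower (57.7%; 29% higher, 28.7% lower). Of the 36 tested in both, 16 were called in both, all in the same direction, with Rad50 and Clspn among the 12 higher and Ercc1, Fance, Fancg and Rad54l the 4 lower. Over all genes tested in both, 6179 of the 6233 called in both had the same direction. Rad50 was at 167, 188 and 188 CPM in SMARTer and 75.6, 78.3 and 74.7 in poly(A) libraries of BC57 (1.25), and at 139, 123 and 101 against 56.1, 54.3 and 53 in urothelium (1.16). In BC57 Clspn was at 75.6, 84.01 and 85.4 CPM against 37.8, 37.1 and 39.6 (1.10), and Ogg1 at 7.42, 12.5 and 8.99 against 18.3, 17.7 and 18.9 (-0.87). The groups of these genes did not overlap. In urothelium Bard1 was at 2.04, 1.61 and 2.89 against 0.804, 0.802 and 0.732 (1.45), and Brca2 at 8.57, 7.44 and 7.63 against 3.35, 3.78 and 3.35 (1.18). Mgmt was lower in SMARTer than in poly(A) urothelium (-0.84, adjusted p = 0.0238). The comparisons of both kits share the poly(A) libraries, so they are only set side by side. Parp1 was at -0.75 in BC57 and -0.57 in urothelium for Ovation, and at 0.28 and 0.24 for SMARTer. Xpc was at 0.87 in both sources for SMARTer, and at -0.16 (not called) and -0.47 for Ovation. Chek1 was at 0.41 and 1.46 for Ovation and at -0.77 and -0.45 (not called) for SMARTer.

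The members' kit differences moved with the base composition and length of their longest annotated transcript. For Ovation, Spearman's rho with GC content was -0.721 in BC57 (n = 39 genes) and -0.683 in urothelium (n = 37), beside -0.524 and -0.472 over all genes. For SMARTer it was -0.314 and -0.386, beside -0.0634 and -0.037. With length, rho was 0.527 in both sources for Ovation and 0.59 and 0.629 for SMARTer, beside 0.137 to 0.265 over all genes. Over all genes the sign depends on the measure, since Pearson's r with log length was -0.183 and -0.11 for Ovation and -0.192 and -0.151 for SMARTer, while the members' r was 0.478 to 0.586. These are descriptions across genes that share libraries, and the part of composition and length in the kit differences was not tested.

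**Figure D5:**
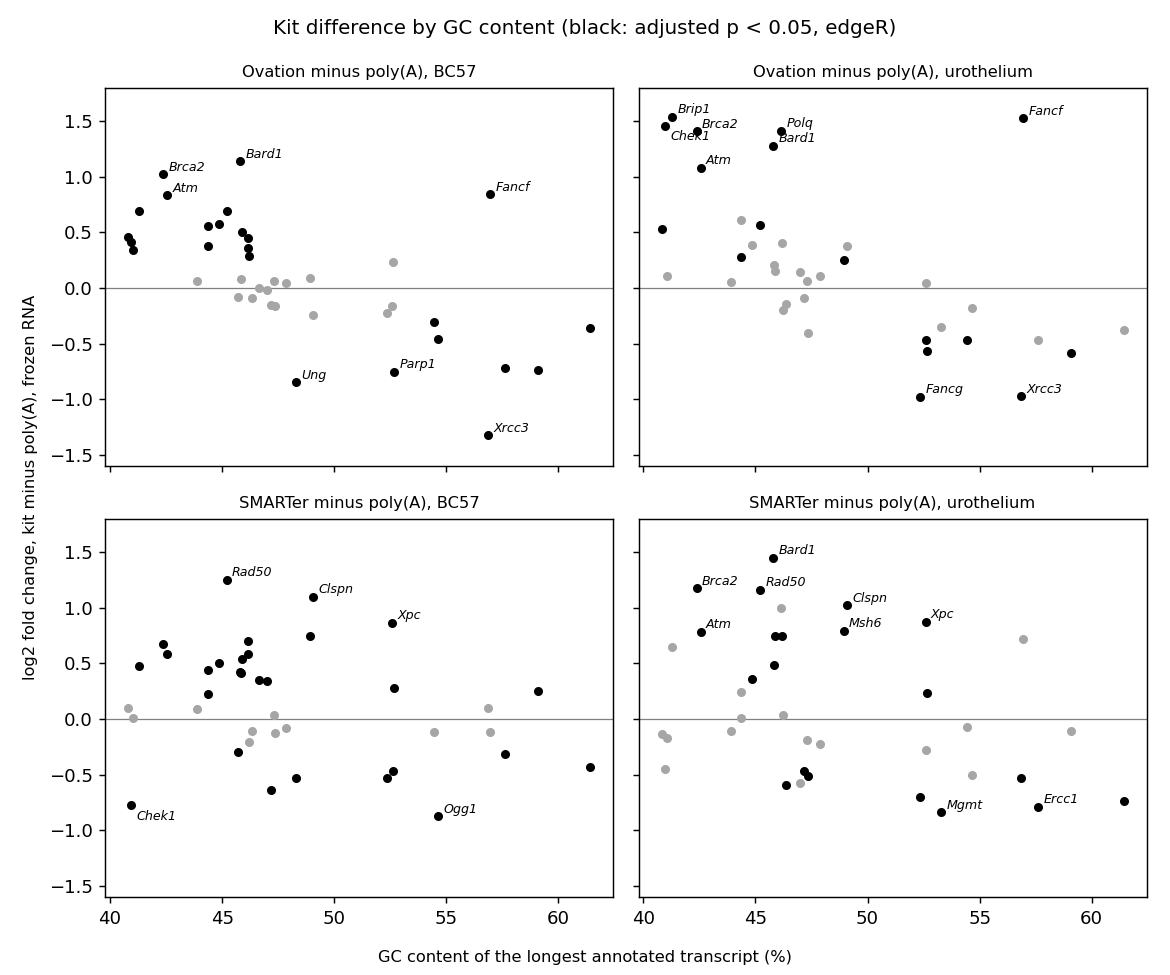
Log2 difference between a low-input kit and poly(A) libraries of the same frozen RNA (y axis) against GC content of the longest transcript (x axis), for Ovation above and SMARTer below and for BC57 left and urothelium right. Black genes passed the test; in the Ovation panels GC-poor genes such as Brca2 and Atm lie above 0 and GC-rich ones such as Xrcc3 below it, with Fancf a GC-rich exception.

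One member had a different BC57 to urothelium gap by kit. For Chek1 the log2 difference was 5.41 in poly(A) and 4.18 in Ovation FF libraries at 2 ng, and the interaction, fitted over both kits, was -0.97 (SE 0.31, adjusted p = 0.0466). It was 1 of 40 members called, lower in Ovation, where 8.32% of 17205 genes were called (6.71% higher, 1.61% lower). In urothelium Chek1 was at 7.01, 7.77 and 3.30 CPM in Ovation and 2.35, 2.26 and 1.87 in poly(A) libraries, with 12, 14 and 7 counts behind the Ovation values. In BC57 it was at 103, 109 and 119 against 80.9, 86.9 and 82.1. The call was lost without Ovation library 1 or 2 of either source, without BC57 poly(A) library 2 and without urothelium poly(A) library 3, with values from -0.98 (adjusted p = 0.0514) to -0.58 (adjusted p = 0.348), and with no filter on low counts (-0.77, adjusted p = 0.0846). Of all genes called in this interaction 80.7% were higher, but 50.0% with upper-quartile scaling and 50.9% with DESeq2, which moved the median of all genes by -0.12 each. Chek1 kept its call with those scalings (-1.09 in both).

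No member that was tested differed by input past the threshold of edgeR's test, but 11 of the 40 failed the filter on low counts in urothelium with Ovation. Frozen Ovation libraries at 50 pg against 2 ng gave 0 calls of 38 members in BC57 (0.0266% of 11259 genes, 6 members at an unadjusted p under 0.05) and 0 of 29 in urothelium (0% of genes, 2 members). SMARTer at 250 pg against 2 ng gave 0 of 39 in BC57 (0% of genes, 1 member) and 0 of 31 in urothelium (0%, 2 members). DESeq2 called no member in these 4 comparisons either. The shares of genes are for adjusted edgeR calls. Those at an unadjusted p under 0.05 are not given, so the unadjusted counts cannot be set against a background. Of the 11 untested members, Chek1, Mgmt and Exo1 had urothelium libraries that did not overlap, all lower at 50 pg. Tested members without overlap in urothelium went both ways: Brca2, Fanca, Chek2 and Ercc1 were lower at 50 pg, and Fance and Atm higher. In BC57 they also did: Brca1, Fancd2, Fancf, Mre11a, Parp1 and Xpc were lower at 50 pg, and Exo1, Ercc1 and Ercc2 higher. The share of all genes without overlap was not counted in either source, so whether the members exceed it is not known. The 3 untested members were picked by their lack of overlap, and their intervals cover the error of counting alone. Chek1 had 0, 2 and 1 counts at 50 pg and 12, 14 and 7 at 2 ng, a level 15.7-fold lower (95% exact interval 4.93 to 80.02). Mgmt had 3, 0 and 0 counts against 6, 5 and 6 and was 8.09-fold lower (2.34 to 43.1), and Exo1 had none against 1, 4 and 3 and was at least 3.81-fold lower by 3 counts over the group. The 50 pg urothelium libraries held 2547239 to 3403769 counts in total and the 2 ng ones 1843795 to 2291690, so the lower values came from the deeper libraries. The summed level of the members in frozen Ovation libraries was 1890 ± 71.2 CPM at 2 ng in BC57 and 699 ± 10.3 in urothelium, against 1725 and 692 at 50 pg, each scaled within its own condition.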

How the data were processed

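RNA-seq was analysed in 66 libraries, 3 in each of 22 groups. The authors deposited gene counts, made with STAR, SAMtools and featureCounts on mm10 per the submitters' processing notes; versions, annotation and use of strand were not stated in these sources. They also deposited log2 values, which equal log2(count × 1000 / upper quartile of nonzero counts + 1) to within 5.33e-14. The tables hold 39179 genes, 1572 of them without a symbol.

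Counts were filtered with filterByExpr, scaled by TMM and tested with edgeR 4.0.16 (R 4.3.3) by its quasi-likelihood test, in 23 comparisons of 2 groups and 2 interactions, with only the groups compared in each fit. Adjusted p-values are Benjamini-Hochberg over all genes tested, and the standard error is the log2 difference over the square root of F. The procedure was tested on simulated data. Alternatives were DESeq2 1.42.0, upper-quartile scaling, no filter, a replicate block, limma 3.58.1 on the deposited log2 values and leaving out each library. A gene without counts in a group was compared with a floor of 3 counts over the group.

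The 40 members and the lists were chosen with earlier results of these data known. All 40 are described by role; every poly(A) library's value is given for the highest and lowest poly(A) difference in each role of 3 or more genes, for Polq and Mgmt, and every library's value for the 3 called members of largest difference in the fixation and kit comparisons, with Brca1, Brca2, Rad51ap1, Chek1 and other genes added after their values were seen. Exon lengths and shared exons came from GENCODE vM21 and promoters from RefSeq (GRCm38.p6, the same assembly as mm10).

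Library numbers are shared by groups. Deviations of same-numbered libraries correlated over 0.1 in every pair in 2 of the 23 comparisons: SMARTer FFPE at 2 ng (0.261, 0.256 and 0.366) and fixation in BC57 with SMARTer (0.232, 0.173 and 0.286). The pairing there comes from the data, not from the labels.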

Additional observations from a re-analysis of the deposited data

Results flagged for a closer look

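For Chek1 the test of whether the BC57 to urothelium difference differed between kits passed the threshold narrowly. The interaction, Ovation FF at 2 ng minus poly(A), was -0.97 on the log2 scale (SE 0.31, adjusted p = 0.0466 by edgeR's quasi-likelihood test over 17205 genes). Chek1 was higher in Ovation than in poly(A) by 0.41 in BC57 and by 1.46 in urothelium. The call was lost on leaving out any of 6 single libraries, with a value down to -0.58 (adjusted p = 0.348), and with no filter on low counts (-0.77, adjusted p = 0.0846). Of all genes, 8.32% were called in this test.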

How the results depend on the processing

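In the poly(A) comparison 36 of the 40 members kept direction and call under every alternative. Nbn turned to -0.0088 and Ercc2 to -0.036 with upper-quartile scaling, and Ercc2 to -0.015 with limma on the deposited log2 values. Xrcc3 (0.20, adjusted p = 0.0725, limma), Atr (0.11, adjusted p = 0.0613, upper-quartile scaling) and Nbn (0.13, adjusted p = 0.0898, DESeq2) lost their calls, and Ercc2 gained one without a filter (0.14, adjusted p = 0.0123). Of 114 values named in other comparisons, none reversed and 22 lost their call somewhere. Members called in SMARTer FFPE at 2 ng, 8, ranged from 1 to 26 when single libraries were left out and were 28 without both libraries numbered 3, a setting chosen after seeing the data. At 250 pg, 2 were called, 5 by DESeq2, 1 with upper-quartile scaling, 16 without both libraries numbered 3 and 0 to 16 without single libraries. Fixation counts were 16 in BC57 Ovation (7 by DESeq2; 9 to 14 without single libraries), 11 in BC57 SMARTer (3 by limma; 6 to 11), 5 in urothelium Ovation (8 by limma; 4 to 7) and 0 in urothelium SMARTer (7 by DESeq2; 0 to 9). The fixation interaction called 0 (1 by limma; 0 to 1) and the kit interaction 1 (3 by DESeq2, 5 with no filter; 0 to 3). Counts in the remaining 17 comparisons stayed within 1.5 times. The cause of these changes was not tested. With the replicate block, calls went from 8 to 10 in SMARTer FFPE at 2 ng and from 11 to 12 for fixation in BC57 SMARTer, where the numbers paired the libraries; elsewhere the libraries share a number alone, and the poly(A) count was 38. In 9 of the 23 comparisons each library correlated best with its own number. Limma on the deposited log2 values was not run between kits, whose tables were normalized separately. Values of Exo1, Ung and Clspn in low-input urothelium libraries rest on few or no counts, so the size of their differences is known only as a bound or a wide interval.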
